A study of Rattus norvegicus with 3 samples.

Results

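The proteasome and chaperonin genes described here are the rows of the deposited gene table whose symbol begins with Psma, Psmb, Psmc, Psmd, Psme, Psmf or Psmg and a digit, or with Cct and a digit from 2 to 8, or equals Tcp1. The rule found 59 of the 17337 listed genes. They comprise the 14 constitutive subunits of the 20S core particle, its 3 immunoproteasome subunits, 6 ATPase and 11 non-ATPase subunits of the 19S regulatory particle, 6 assembly factors, 4 activators, 1 inhibitor and the 8 subunits of the chaperonin. The rule also found 3 thymus-type or testis-type subunits and 3 genes placed in no class, Psmc3ip, Psma3l and Cct8l1. The table holds bulk poly(A) RNA-seq of Schwann cell precursors, the embryonic glia that precede Schwann cells in peripheral nerve, as 3 libraries of 1 group. These primary peripheral glial cells came from dorsal root ganglia of wild-type embryonic rats, were grown untreated in a modified Sato medium based on DMEM, and were sequenced with a stranded mRNA kit. The labels give no age, strain or sex and mention no separate cultures, so the errors and p-values given here may reflect technical spread alone. With no second condition, the comparisons are between genes within each library.

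The 20S core particle is a barrel of stacked rings: outer alpha rings that gate the entrance and inner beta rings, whose subunits encoded by Psmb5, Psmb6 and Psmb7 cut proteins with chymotrypsin-like, caspase-like and trypsin-like activity. The 19S regulatory particle binds ubiquitin-tagged proteins, unfolds them with its ATPase ring and feeds them into the core. Interferon induces Psmb8, Psmb9 and Psmb10, which replace the 3 constitutive catalytic subunits and favour peptides for antigen presentation, and thymus and testis have subunits of their own. The chaperonin TRiC, also called CCT, is a double ring of related subunits that folds newly made actin, tubulin and other cytosolic proteins.

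The promoters of the 3 immunoproteasome genes and of the constitutive genes they replace are shown because these pairs have the widest ratios among the pairs of alternative subunits whose lower gene had 100 counts or more. Each sequence runs from 250 bases before to 50 bases after the start site that RefSeq lists in build GRCr8. Capitals mark matches on either strand to TGACNNNGC (the core of the antioxidant response element, which the proteasome regulator Nfe2l1 can bind), 2 copies of GAAA set apart by any 2 bases (the core of the interferon-stimulated response element) or TTCNNNGAA (the core of the gamma-activated site).
Psmb8 (chr20:4656982-4657281, minus strand): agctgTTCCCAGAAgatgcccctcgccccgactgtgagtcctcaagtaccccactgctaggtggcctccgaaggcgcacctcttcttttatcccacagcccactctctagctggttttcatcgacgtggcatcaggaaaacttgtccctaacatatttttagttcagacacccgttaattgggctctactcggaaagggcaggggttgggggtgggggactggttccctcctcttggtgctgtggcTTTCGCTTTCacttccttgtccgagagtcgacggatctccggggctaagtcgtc
Psmb5 (chr15:32047330-32047629, minus strand): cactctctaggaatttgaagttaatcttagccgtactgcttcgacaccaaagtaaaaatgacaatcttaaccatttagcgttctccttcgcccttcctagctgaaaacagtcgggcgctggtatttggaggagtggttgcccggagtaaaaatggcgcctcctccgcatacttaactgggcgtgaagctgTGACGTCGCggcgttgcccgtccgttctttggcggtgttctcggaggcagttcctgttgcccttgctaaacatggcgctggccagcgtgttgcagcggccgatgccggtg
Psmb9 (chr20:4668750-4669049, plus strand): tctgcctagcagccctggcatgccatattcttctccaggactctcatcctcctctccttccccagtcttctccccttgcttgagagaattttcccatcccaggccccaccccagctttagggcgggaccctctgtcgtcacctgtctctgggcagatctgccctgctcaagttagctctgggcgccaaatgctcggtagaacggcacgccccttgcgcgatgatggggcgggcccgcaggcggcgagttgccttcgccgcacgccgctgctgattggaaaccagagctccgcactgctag
Psmb6 (chr10:55737638-55737937, plus strand): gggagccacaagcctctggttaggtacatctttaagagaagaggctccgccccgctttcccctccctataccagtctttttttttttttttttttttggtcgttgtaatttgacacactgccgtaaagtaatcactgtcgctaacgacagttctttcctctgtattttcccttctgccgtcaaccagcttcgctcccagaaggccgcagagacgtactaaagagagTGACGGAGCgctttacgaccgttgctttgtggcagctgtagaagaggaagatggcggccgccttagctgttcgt
Psmb10 (chr19:50743243-50743542, minus strand): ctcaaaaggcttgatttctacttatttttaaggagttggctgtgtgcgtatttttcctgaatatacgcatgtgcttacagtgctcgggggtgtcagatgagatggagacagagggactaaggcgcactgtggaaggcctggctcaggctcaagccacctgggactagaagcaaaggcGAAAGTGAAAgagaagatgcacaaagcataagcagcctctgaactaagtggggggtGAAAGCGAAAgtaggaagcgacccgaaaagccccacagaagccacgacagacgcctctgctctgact
Psmb7 (chr3:42827421-42827720, minus strand): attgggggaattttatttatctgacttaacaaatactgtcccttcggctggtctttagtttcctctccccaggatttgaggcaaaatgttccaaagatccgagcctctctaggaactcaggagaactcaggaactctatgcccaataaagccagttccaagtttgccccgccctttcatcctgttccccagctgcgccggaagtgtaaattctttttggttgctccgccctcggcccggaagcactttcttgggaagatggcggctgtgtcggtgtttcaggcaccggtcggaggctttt

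The interferon-stimulated core was found in Psmb8, where it begins 4 bases before the start site, and at 2 places in Psmb10, which begin 73 and 17 bases before it. The antioxidant core was found in Psmb5, from 60 bases before the start, and in Psmb6, from 24 bases before it. The gamma-activated core was found in Psmb8, from 245 bases before the start. Neither Psmb9 nor Psmb7 held any of the 3 patterns in this window. Of the 59 genes, 53 had a promoter in the RefSeq table. The interferon-stimulated core matched 7 of these 53 (13.2%), against 3.92% of all 33469 promoters of this length in the table. Besides Psmb8 and Psmb10 it matched Psme2, Psma4, Psmb3, Psmd7 and Psmg4. These include 2 of 13 constitutive core genes and 2 of 3 immunoproteasome genes. TGACNNNGC matched 10 of 53 (18.9%) against 12.1% of all promoters, with 4 of 13 constitutive core genes and 0 of 3 immunoproteasome genes. TTCNNNGAA matched 4 of 53 (7.55%) against 8.87%. Of patterns found in many promoters, GGGCGG (the GC box) matched 37 of 53 (69.8%) against 33.1%, CCGGAAG (a site of ETS factors) 17 of 53 (32.1%) against 8.75%, and CCAAT 26 of 53 (49.1%) against 37.5%. All patterns were searched on both strands, and matches of different patterns may overlap. A match is a run of letters and no evidence of binding.

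The libraries held between 14139074 and 15309526 assigned reads each. All 11 Schwann cell precursor markers reached 1 TPM in every library, as 60.6% of all listed genes did. The highest were Ednrb, Ngfr, Sox10 and Erbb3, whose mean levels were between 581 and 1414 TPM. The lowest were Tfap2a and Fabp7 at means of 16.7 and 3.32 TPM. TPM is the read count divided by the gene's listed exon length and scaled so that each library sums to 1000000, so levels of different genes share a scale. Fibroblast markers were also high (8 of 8 reached 1 TPM in every library, with a summed level between 8465 and 8664 TPM and Col1a1 at 3842 TPM), and so were sensory neuron markers (7 of 7, summed between 744 and 768 TPM). Every level below is a mixture over the cells in the dish: fewer cells of a type and less RNA per cell cannot be told apart in bulk RNA. How much these cell types contributed was not tested.

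Nearly all proteasome and chaperonin genes were expressed, and most at high level. A level of 1 TPM or more in each library was reached by 54 of the 59 genes, against 60.6% of all listed genes. The 5 others were Psmb11, Psma8, Cct6b, Psma3l and Cct8l1. Cct8l1 had no count in any library, which allows a level of up to 0.105, 0.113 and 0.113 TPM in libraries 1, 2 and 3 (3 counts per library, counting error only). The median of the 59 genes was 186.60 ± 4.29 TPM (SD, n = 3 libraries), against 21.68 ± 0.20 TPM for the median of the 13345 genes with a count. Together the 59 genes made up 1.01% ± 0.0085 of the TPM of a library (SD, n = 3), 0.800% from the proteasome classes and 0.208% from the chaperonin. In a limma one-sample test against 1 TPM, with Benjamini-Hochberg adjustment over all genes, 54 of 58 tested members stood above 1 TPM, where 78.4% of all genes did, and 4 stood below it, where 17.8% of all genes did.

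**Figure D1:**
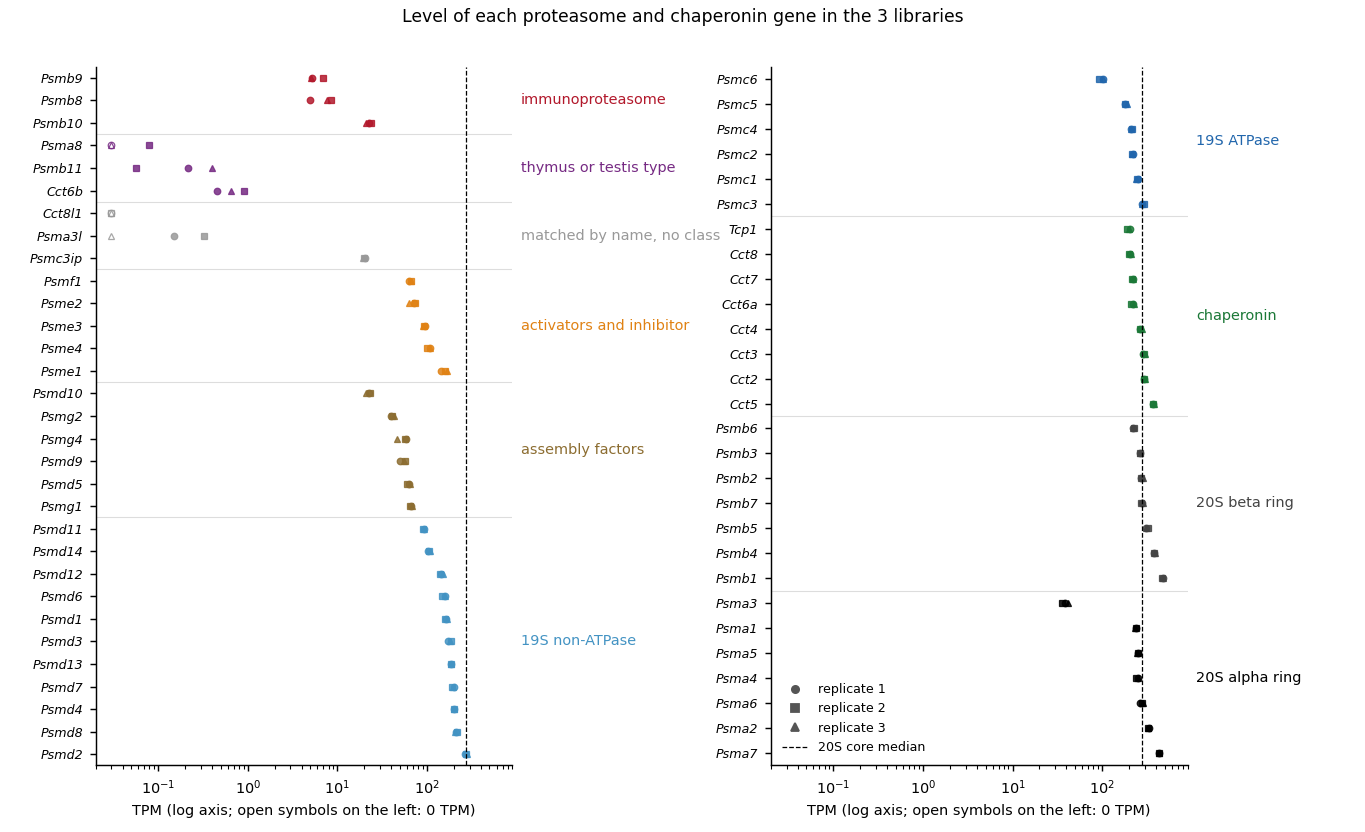
Level of each of the 59 genes in TPM on a log axis, with 1 symbol per library (circle, square and triangle for replicates 1, 2 and 3) and open symbols at the left edge for 0 TPM; colours mark the class and the dashed line the mean 20S core median of 276 TPM. Immunoproteasome genes lie between 5.0 and 23.6 TPM, thymus-type and testis-type genes below 1 TPM, and Psma3 stands apart from the other alpha ring genes.

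Constitutive 20S core. The 14 core genes had a median of 276.1 ± 8.4 TPM (SD, n = 3 libraries), and 13 of the 14 lay within 2.15-fold of each other. Psmb1, a structural beta subunit, was the highest at 474, 472 and 483 TPM in libraries 1, 2 and 3. Psma7, an alpha ring subunit, followed at 430.5, 435 and 435 TPM. These genes and Psmb4 (382, 377 and 391 TPM) were the highest of the core in every library. The catalytic genes were close to each other. Psmb5, of the chymotrypsin-like site, had 307, 325 and 308 TPM, Psmb7, of the trypsin-like site, 282, 272 and 285 TPM, and Psmb6, of the caspase-like site, 219, 225 and 219.9 TPM, so that Psmb5 was the highest and Psmb6 the lowest of the 3 in each library. The other alpha ring genes ran from Psma1 at 238, 239 and 232 TPM to Psma2 at 331, 322 and 329 TPM, with Psma4, Psma5 and Psma6 between means of 247 and 277 TPM. The beta ring genes Psmb2 and Psmb3 averaged 279 ± 8.66 and 263 ± 1.61 TPM (SD, n = 3). The median of the beta ring was 282.1 ± 7.2 TPM and that of the alpha ring 251.8 ± 2.6 TPM.

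Psma3 was the exception. It had 38.9, 36.0 and 41.1 TPM, less than any other core gene in each library. The highest alpha ring gene therefore exceeded the lowest by 11.2-fold, and by 1.84-fold when Psma3 was left out; over the whole core the ratio was 12.3-fold with it and 2.15-fold without it. The deposited exons of Psma3 (build rn6, chr6:93423029-93443025, plus strand) share 872 of their 1967 bases (44.3%) with those of Psma3l, a gene listed on the same strand whose exons are 97.2% covered by the overlap. Psma3l had 1, 2 and 0 counts, and Psma3 566, 487 and 557. RefSeq in build GRCr8 lists Psma3l as another name of Psma3. Divided by its 1095 unshared bases alone, Psma3 came to 70.0, 64.7 and 73.9 TPM (69.5 ± 4.6, SD, n = 3), still below every other core gene in each library. Some counting settings drop reads that fall on exons of 2 overlapping genes. Which setting was used is not stated in the labels or the table, and the level of Psma3 is uncertain.

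**Figure D2:**
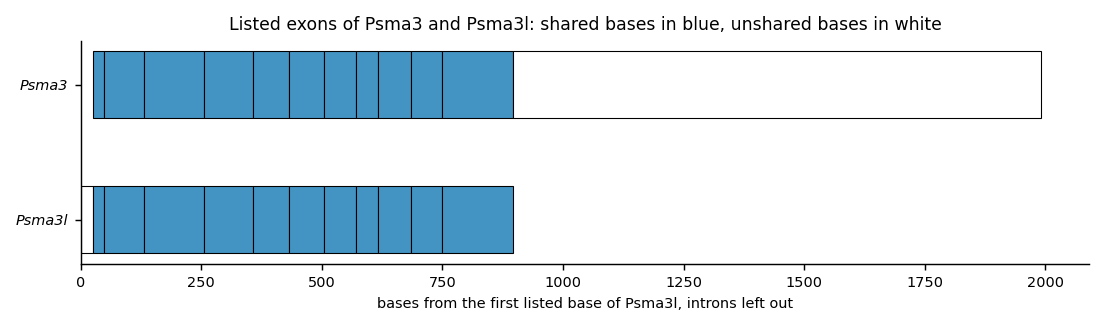
Listed exons of Psma3 and Psma3l laid end to end, with introns left out and the distance in bases on the horizontal axis; blue bases belong to both genes and white bases to 1 of them. The 872 shared bases cover nearly all of Psma3l, and the 1095 unshared bases of Psma3 lie at its end.

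Regulatory particle. The ATPase ring, which unfolds substrates, had a median of 216.2 ± 1.3 TPM and the non-ATPase subunits one of 178.2 ± 6.6 TPM (SD, n = 3), which are 0.784 ± 0.027 and 0.646 ± 0.024 of the 20S core median in the same library. This order rests on the division by exon length: in CPM (counts scaled to the library total, without that division) the medians were 145 for the ATPase ring and 149 for the non-ATPase subunits, against 131 for the core. Each gene was then set against the 20S core median of its own library, as the log2 difference in TPM after 0.1 TPM was added, in a limma fit over all 13345 genes. Of the 58 members with a count, 43 stood below the core median, where 94.9% of all genes did, 8 stood above it, where 4.43% of all genes did, and 7 did neither. With the mean of the core's log2 values as the reference in place of their median, 14 stood above, since Psmc3, Psmd2, Cct4 and 3 core genes joined them. The median log2 difference was -0.54 over the members and -3.67 over all genes. For the 14 core genes, 5 above and 5 below, this split is what a comparison with their own median gives. Because every difference contains the spread of the same reference, limma pooled the variances strongly (19.5 prior degrees of freedom beside 2 residual), so its p-values may be too small. The adjusted p-values printed with a difference or ratio therefore come from an ordinary one-sample t test. It uses each gene's own variance over the 3 libraries, taken from the limma fit without pooling. The SE beside them is that of the pooled fit and does not give these p-values. With the own-variance p-values, 40 of the 44 members outside the core were called, against 41 in the pooled fit.

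Of the 6 ATPase genes, 5 stood below the core median and 0 above it, where 94.9% and 4.43% of all genes did. Psmc6 was the lowest at 102, 92.4 and 102 TPM, a log2 difference of -1.48 ± 0.04 (SE; own-variance limma adjusted p = 0.0014). Psmc3 was the highest at 283, 292 and 278 TPM and was not separated from the core median (0.04 ± 0.04, own-variance adjusted p = 0.41). Psmc6 lay under each of the other ATPase genes in each library and the ring's highest gene exceeded its lowest by 2.89 ± 0.24-fold (SD, n = 3). Psmc1 averaged 244 ± 6.93 TPM, and its call below the core was lost with its own variance (adjusted p = 0.066). The remaining ATPase genes, Psmc2, Psmc4 and Psmc5, averaged between 185 and 219.9 TPM.

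Of the 11 non-ATPase genes, 10 stood below the core median and 0 above it, where 94.9% and 4.43% of all genes did. Psmd2, a scaffold subunit that also binds ubiquitin-like shuttle proteins, had 269, 273 and 282 TPM and was not separated from the core median (log2 difference -0.01 ± 0.04, own-variance adjusted p = 0.22). Psmd11, whose product helps to clamp the regulatory particle onto the core, was the lowest at 92.6, 90.9 and 92.6 TPM (-1.58 ± 0.04, own-variance limma adjusted p = 0.00068). Psmd14, the deubiquitinase that removes ubiquitin chains at the entry to the core, was next at 103, 105 and 109 TPM (-1.38 ± 0.04, own-variance limma adjusted p = 0.00047). The ubiquitin receptor gene Psmd4 had 199.7, 201 and 201 TPM, and the other scaffold gene Psmd1 163, 158 and 166 TPM. Psmd3, Psmd6, Psmd7, Psmd8, Psmd12 and Psmd13 averaged between 145 and 213 TPM. The highest non-ATPase gene exceeded the lowest by 2.98 ± 0.07-fold (SD, n = 3), so levels within this particle differed more than between its 2 class medians.

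**Figure D3:**
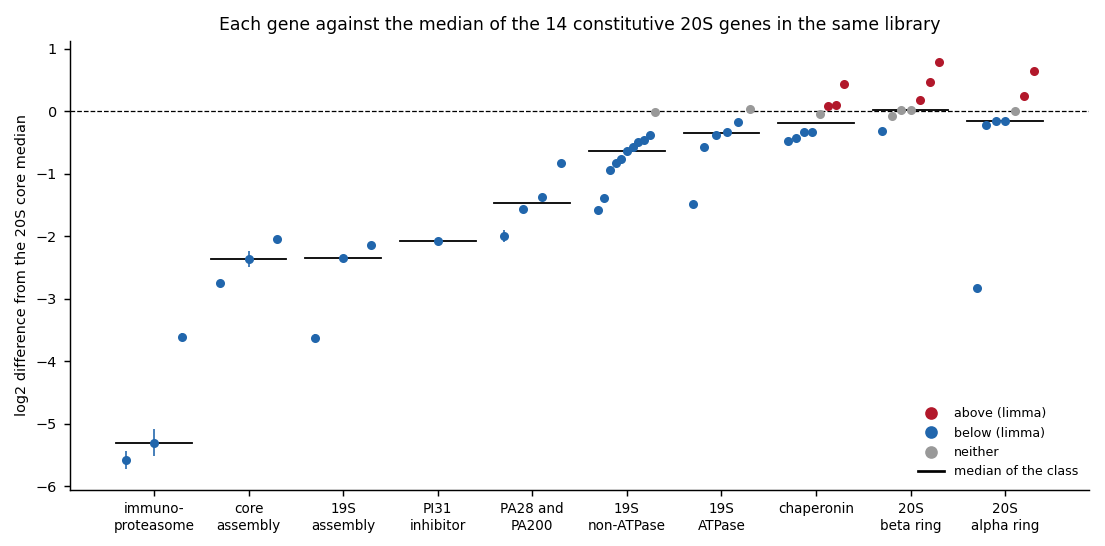
Log2 difference of each gene from the median of the 14 constitutive 20S genes in the same library, by class, as the mean of 3 libraries. Bars show the SE from each gene's own variance, not the pooled SE printed in the text. Red, blue and grey mark genes called above, below and neither by the pooled limma fit, and black lines the class median. Thymus-type and testis-type genes and genes of no class are not drawn; of the classes drawn, the immunoproteasome has the lowest median, and chaperonin and beta ring genes lie around 0.

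Assembly factors, activators and inhibitor. Genes for factors that build the particle without staying in it had class medians below those of the constitutive subunit classes. The 3 measured core assembly chaperone genes Psmg1, Psmg2 and Psmg4 had a median of 53.7 ± 6.1 TPM and the 3 regulatory particle assembly genes Psmd5, Psmd9 and Psmd10 one of 54.2 ± 3.9 TPM (SD, n = 3). That is 0.195 ± 0.028 and 0.196 ± 0.012 of the 20S core median. All 6 stood below it by limma, as did the 4 activator genes, Psmf1 and 94.9% of all genes. For these assembly, activator and inhibitor genes the own-variance adjusted p was at most 0.0036. Psmg4 had 57.8, 56.7 and 46.6 TPM, lowest in library 3. Psmd10, also known as gankyrin, was the lowest of the assembly factors at 22.5, 23.3 and 21.1 TPM. Its listed exons cover 530 bases in 10 pieces, 6 of them separated by gaps of 5 bases or fewer, so its length and level are uncertain. Psmg3 was not analysed here.

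The activators open the core without ubiquitin. Psme1 and Psme2 encode the alpha and beta chains of PA28, which interferon induces and which form a mixed ring. Psme1 had 143, 160.1 and 167 TPM and Psme2 72.7, 72.9 and 62.9 TPM, so their RNA levels were not equal in any library. Psme2 over Psme1 was 0.509, 0.455 and 0.377 in libraries 1, 2 and 3, a log2 ratio of -1.17 ± 0.09 (SE; own-variance limma adjusted p = 0.013). Psme3, the nuclear PA28 gamma, had 95.2, 93.8 and 90.6 TPM, a log2 ratio to Psme1 of -0.75 ± 0.09 (own-variance limma adjusted p = 0.015). Psme4, which encodes PA200, had 109.6, 101 and 109 TPM, a log2 ratio to Psme1 of -0.56 ± 0.09 (own-variance limma adjusted p = 0.026). In TPM, Psme1 was thus the highest activator gene in each library, where 88.9% of all genes stood below it and 8.63% above. Its place above Psme3 and Psme4 rests on the division by exon length. Psme1 (1000 bases) had 1056, 1101 and 1148 counts in libraries 1, 2 and 3, fewer than both in each library. Psme3 (2616 bases) had 1841, 1687 and 1632 counts, and Psme4 (7277 bases) 5895, 5049 and 5440. Psme2 had 720, 672 and 580 counts, also fewer than Psme1. Psmf1, the PI31 protein that inhibits the core in vitro, had 63.6, 66.1 and 66.7 TPM.

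Immunoproteasome. All 3 immunoproteasome catalytic genes were detected in every library, far below the constitutive genes they replace. Psmb8 (beta5i) had 4.99, 8.44 and 7.76 TPM from 40, 63 and 58 counts, against 307, 325 and 308 TPM for Psmb5. The mean of Psmb8 was 44.4-fold lower than that of Psmb5 (95% Poisson interval of the count 38.0 to 52.1, counting error only), a log2 ratio of -5.49 ± 0.12 (own-variance limma adjusted p = 0.0018). Psmb8 was lowest in library 1, and its highest library exceeded its lowest by 1.69-fold. Psmb9 (beta1i) had 5.19, 6.85 and 5.09 TPM from 35, 43 and 32 counts, against 219, 225 and 219.9 TPM for Psmb6. Its mean was 38.8-fold lower (interval 32.2 to 47.2), a log2 ratio of -5.27 ± 0.11 (own-variance limma adjusted p = 0.00091). Psmb10 (beta2i) was the highest of the 3 in every library at 22.8, 23.6 and 21.1 TPM, against 282, 272 and 285 TPM for Psmb7. Its mean was 12.4-fold lower (interval 11.4 to 13.6), a log2 ratio of -3.63 ± 0.06 (own-variance limma adjusted p = 0.00067). In the fits against Psmb5, Psmb6 and Psmb7, 95.7%, 93.2% and 95.0% of all genes stood below the constitutive gene, so the call itself is the common one and the size of the ratio is the measurement. Of each pair's summed TPM, Psmb8 made up 2.20%, Psmb9 2.51% and Psmb10 7.45%.

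**Figure D4:**
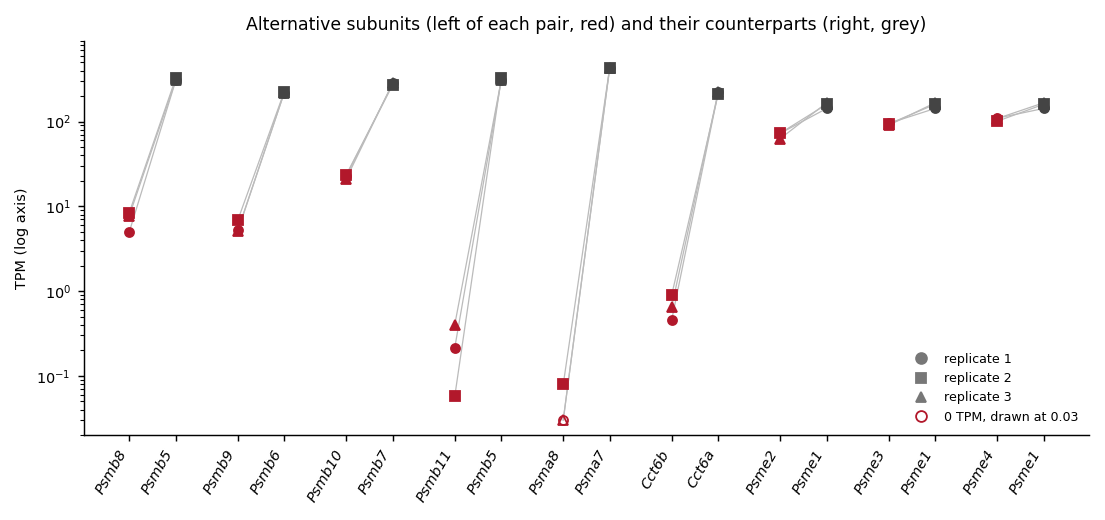
Level in TPM on a log axis of each alternative subunit gene (left of a pair, red) and of its counterpart (right, grey), with 1 symbol per library, lines joining the values of a library and open symbols for 0 TPM drawn at 0.03. Every line rises to the right: the immunoproteasome genes lie 12.4-fold to 44.4-fold under their counterparts, Cct6b 327-fold, and Psme2, the farthest from Psme1 of the PA28 and PA200 genes, 2.25-fold, each as a ratio of means over the libraries.

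The deposited coordinates place Psmb8 (build rn6, chr20:3990809-3993772) and Psmb9 (chr20:3973424-3978845) 11963 bases apart on opposite strands; in GRCr8 each is listed on the other strand. Tap1, a peptide transporter of antigen presentation, lies 456 bases from Psmb9 and had 6.78, 7.28 and 8.09 TPM, near the level of Psmb8 and Psmb9. Tap2, the gene of its partner chain, is listed at 2 places and had 1, 1 and 0 counts, so its level is uncertain. Psmb10, on chromosome 19 (chr19:37909544-37912027), is not in that cluster. Markers of immune cells were present at low level. Of 12 macrophage markers, 7 reached 1 TPM in every library, where 60.6% of all listed genes did, and 3 in no library. The 12 had a summed level of 38.8 to 49.3 TPM. They were led by Lyz2, Tyrobp, Fcer1g and Cd68 at means of 9.85, 8.35, 6.88 and 5.10 TPM, levels near those of Psmb8 and Psmb9. Ptprc, Itgam and Cd74 averaged 0.32, 0.34 and 0.078 TPM. Of 9 lymphoid markers, 1 reached 1 TPM in every library, against the same 60.6%, and 3 (Cd3e, Ms4a1 and Nkg7) had no count. The part of such cells in the immunoproteasome levels was not tested.

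Of 20 measured interferon and antigen processing genes, 13 stood above 1 TPM by limma, where 78.4% of all genes did, 6 below it, where 17.8% did, and 1, Ifng, had no count. Their median was 8.96 ± 0.59 TPM (SD, n = 3), against 21.68 TPM for all genes with a count. B2m, the light chain of MHC class I, was by far the highest at 502, 491 and 482 TPM, followed by the interferon receptor genes Ifngr1 at 105 ± 4.68, Ifnar1 at 80.4 ± 1.69 and Ifngr2 at 46.6 ± 0.64 TPM (SD, n = 3). The receptor genes were thus expressed, and the induced genes Ifit3, Mx1 and Oasl averaged 0.091, 0.16 and 0.46 TPM. Irf8, Ciita and Tap2 were also under 1 TPM in each library.

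Thymus-type and testis-type subunits. These genes had from 1 to 25 counts over all libraries. Psmb11, the beta5t subunit of thymic cortical epithelium, had 4, 1 and 7 counts, or 0.214, 0.057 and 0.401 TPM. Its mean was 1399-fold below that of Psmb5 (95% Poisson interval 801 to 2708), though the genes lie 3778 bases apart on chromosome 15 (Psmb11 at chr15:33267413-33273587 and Psmb5 at chr15:33259039-33263634, build rn6, opposite strands). Psma8, the alpha subunit of the spermatogenic proteasome, had 1 count in library 2 and 0 in libraries 1 and 3. Its ratio to Psma7 was 6.1e-05 with a 95% Poisson interval of 1.5e-06 to 0.00034. Cct6b, the testis form of the zeta subunit of the chaperonin, had 6, 11 and 8 counts, or 0.458, 0.902 and 0.655 TPM, a mean 327-fold below that of Cct6a (interval 222 to 505). In the test against 1 TPM, Psmb11, Psma8 and Cct6b were called below, and Cct6b was not with its own variance (adjusted p = 0.14). The log2 ratios of these genes to their counterparts, -10.07 for Psmb11, -11.80 for Psma8 and -8.19 for Cct6b (own-variance limma adjusted p = 0.0028, 0.00073 and 0.0014), depend on the 0.1 TPM added before the logarithm; below Psma7 and Cct6a stood 97.2% and 93.0% of all genes. Of 13 meiosis and spermatid genes, 13 were under 1 TPM in each library and 8 had no count, the highest being Stag3 at 0.16 TPM.

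Psmc3ip, which the name pattern also matched, encodes a partner of the meiotic recombinases and no proteasome subunit. It had 20.6, 19.8 and 19.6 TPM, above 1 TPM by limma (own-variance adjusted p = 0.00013), while the recombinase gene Dmc1 had 0, 2 and 3 counts.

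Chaperonin. The 8 subunit genes of TRiC were expressed at levels close to each other and to the 20S core. Their median was 244.6 ± 5.9 TPM, against 276.1 ± 8.4 TPM for the 20S core (SD, n = 3), a ratio of 0.886 ± 0.015. Cct5 was the highest at 372, 375 and 378 TPM and Tcp1, the alpha subunit, the lowest at 207, 191 and 201 TPM. The highest gene exceeded the lowest by 1.89 ± 0.08-fold (SD, n = 3), less than in the ATPase ring, the non-ATPase subunits or the beta ring. In the alpha ring this ratio was 11.2-fold with Psma3, and close to that of the chaperonin without it. Against the core median, 3 of the 8 stood above (Cct5 by 0.44, Cct2 by 0.11 and Cct3 by 0.08 on the log2 scale, own-variance limma adjusted p = 0.0021, 0.0093 and 0.0093), 4 stood below (Cct6a, Cct7, Cct8 and Tcp1, by -0.33 to -0.47) and Cct4 did neither. The own-variance adjusted p of the 4 below was at most 0.0092. Of all genes, 4.43% stood above the core median and 94.9% below it. Cct2 had 294, 294 and 304 TPM, Cct3 287, 291 and 299 TPM and Cct4 266, 264 and 277 TPM. Cct6a, Cct7 and Cct8 averaged 219.7 ± 6.7, 219 ± 3.78 and 205 ± 4.40 TPM (SD, n = 3).

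Set against the chaperonin median in place of the core, 15 of 58 members stood above, where 5.20% of all genes did, and 39 below, where 94.0% did. Outside the chaperonin those above were 9 core genes with Psmc3 and Psmd2 (own-variance limma adjusted p = 0.033 and 0.0059). The order of chaperonin and core turns in the same way without the division by length: in CPM the chaperonin median was 265 and the core median 131. Named pseudogenes are a further limit. RefSeq lists 72 named pseudogenes of 25 of the 59 genes, with 14 for Cct6a, 7 for Psmb3 and 5 for Psma6, and none of the 72 is a row of the deposited table. The treatment of reads that match a gene and a pseudogene is not stated either, and its effect was not tested.

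Partners of both machines. All 16 measured proteasome partner genes reached 1 TPM in every library, as 60.6% of all listed genes did. Vcp, the segregase that unfolds substrates ahead of the proteasome, averaged 518 ± 10.3 TPM, and the shuttle genes Rad23b and Ubqln1 253 ± 5.13 and 201 ± 5.17 TPM. Shfm1, an older symbol of the small regulatory subunit Sem1, averaged 182 ± 6.29 TPM (SD, n = 3 each). In the fit against the 20S core median, 1 of the 16 stood above and 15 below, near the shares of 4.43% and 94.9% of all genes. Pomp, the maturation factor of the core, had 1.67, 1.47 and 1.47 TPM, but is listed at 2 places and its level is uncertain.

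All 8 transcription control genes measured reached 1 TPM in every library, against 60.6% of all listed genes, and all 8 stood below the 20S core median, where 94.9% of all genes did. The highest were Nfe2l2, the antioxidant regulator, at 125 ± 4.93 TPM, its partner Mafg at 63.6 ± 1.57 TPM, Ngly1, which processes Nfe2l1, at 52.0 ± 0.72 TPM and Keap1, which degrades the Nfe2l2 protein, at 42.0 ± 1.54 TPM (SD, n = 3). Among genes that encode ubiquitin, Ubb had 2173, 2237 and 2144 TPM and Rps27a 807, 807 and 826 TPM, each above every proteasome subunit gene in each library. Uba1, which activates ubiquitin, averaged 232 ± 3.65 TPM (SD, n = 3). Of 13 chaperonin partners, 12 reached 1 TPM in every library, against the same 60.6%. The prefoldin genes Pfdn1, Pfdn5 and Pfdn6, which hand unfolded chains to the chaperonin, averaged 289 ± 1.72, 227 ± 10.1 and 121 ± 4.22 TPM, and the tubulin cofactor Tbca 277 ± 6.15 TPM (SD, n = 3). Tbcb, at 0.31 TPM, is listed at 2 places and its level is uncertain.

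Spread between libraries. Among the 52 members with a mean of 10 TPM or more, the highest library exceeded the lowest by a median of 1.05-fold, against 1.08-fold for all 8370 such genes. The ratio passed 1.2 for 1 member, Psmg4 at 1.24, where 7.54% of all such genes passed it. Psme1 (1.17) and Psme2 (1.16) came next. Psme1 was lowest in library 1 and Psme2 lowest in library 3, so their ratio moved more than either gene. The highest value fell in library 3 for 27 of the 52, in library 2 for 13 and in library 1 for 12.

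**Figure D5:**
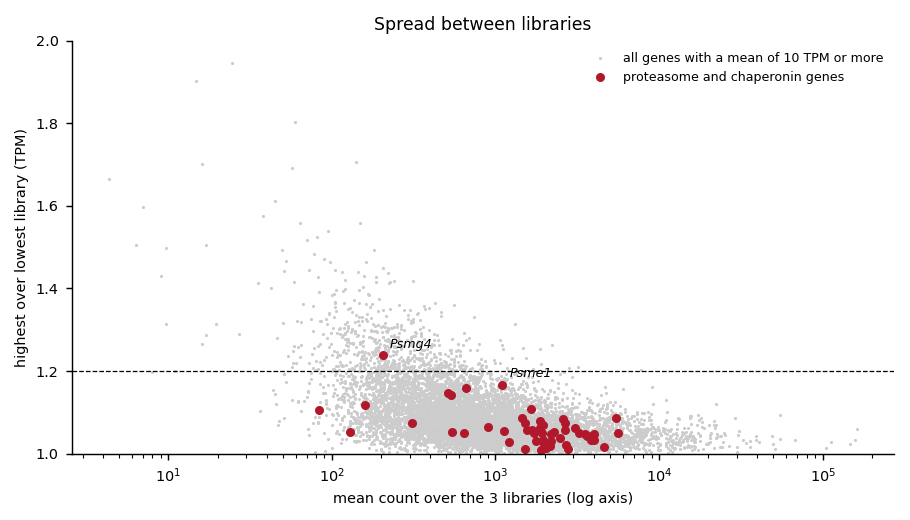
Ratio of the highest to the lowest library in TPM against the mean count over the 3 libraries on a log axis, for all 8370 genes with a mean of 10 TPM or more (grey) and the 52 members among them (red); the dashed line marks 1.2 and the vertical axis ends at 2, with 2 genes above it. Psmg4 is the member above the line, at 1.24, and the other members lie at or under 1.17.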

How the data were processed

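RNA of 3 libraries of 1 group was measured. Reads were processed with STAR 2.5.2b and Subread on build rn6, per the submitters' processing notes; no annotation, strand setting, pooling or treatment of multi-mapping and overlapping reads is stated there. The deposited table holds, per gene, the authors' raw read counts, reads per kilobase and TPM. When TPM was computed anew from these counts and exon lengths, no value was off by more than 0.0005 (tolerance 0.001). A further 6 columns matched no sample and were not used, and 2 rows name no gene.

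Levels were tested with limma 3.58.1 in R 4.3.3, two-sided, with Benjamini-Hochberg adjustment over all 13345 genes with a count and a call at an adjusted p under 0.05. Each gene was set against 1 TPM on log2(TPM + 1), and against the 20S median, the chaperonin median or a counterpart gene of the same library on log2(TPM + 0.1). Fold changes on these scales understate differences of low genes. Poisson intervals are at 95% and cover counting error only. edgeR 4.0.16 gave an alternative count test and scaling, and DESeq2 1.42.0 alternative size factors for the spread between libraries. Python 3.11.15, pandas 2.3.3, NumPy 2.4.6, SciPy 1.17.1 and matplotlib 3.10.9 did the rest. The fits were tested on simulated data.

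All members are named; of each other list the 4 highest genes and those under 1 TPM in every library were eligible, and further genes were named after their values were seen; some list genes are not reported here. Of 199 list symbols, 186 matched the table, 2 of them by gene identifier. The members and lists were chosen with earlier results of these data known, so no p-value is given for a list. Psma3 alternatives and own-variance fits were added after seeing the data.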

Additional observations from a re-analysis of the deposited data

How the results depend on the processing

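No paired analysis was possible because the libraries form 1 group and each difference is already within a library. Of 381 alternative values for 40 results, 343 kept their direction, their call and their size within the spread between libraries or 1.5 times the count. The 106 alternatives of the 9 gene pairs kept direction and call, with a largest adjusted p of 0.026; the Psma8 ratio could not be computed without replicate 2 or with a mean of at least 0.1 TPM, and ran from -8.73 to -14.35 on the log2 scale with 1 and 0.01 TPM added. No tested difference or ratio changed sign, but none of their alternatives left out the division by length. Without that division, the counts of Psme3 and Psme4 exceeded those of Psme1 in each library. The number of all genes below 1 TPM, 2374, became 6235 when all listed genes entered and 1372 when a mean under 0.1 TPM was left out, since other genes were tested. The members above the 20S core, 8, became 14 when the mean of log2 values, which Psma3 lowers, replaced the median of the core. Averaging log2 values over members gave 216 TPM for the alpha ring, 308 for the beta ring, 258 for the 20S core, 9.65 for the immunoproteasome, 197 for the ATPase ring, 166 for the non-ATPase subunits, 42.3 for the regulatory assembly genes and 254 for the chaperonin. In CPM, which leave out the length, the medians were 133, 127 and 131 for the alpha ring, the beta ring and the 20S core, 3.72 for the immunoproteasome, 145 for the ATPase ring, 149 for the non-ATPase subunits, 35.2 and 21.3 for the regulatory and core assembly genes, 97.1 for the activators and 265 for the chaperonin, so that the ATPase ring, the non-ATPase subunits and the chaperonin stood above the 20S core, and the alpha ring above the beta ring, each the other way round in TPM. The highest over the lowest subunit was then 5.19 for the alpha ring and for the 20S core, 2.22 for the beta ring, 2.0 for the ATPase ring, 4.97 for the non-ATPase subunits and 1.79 for the chaperonin. Without Psma3, an alternative chosen after seeing the data, the alpha ring median was 264 TPM and the highest over the lowest subunit 1.84 in the alpha ring and 2.15 in the 20S core; with Psma3 divided by its unshared bases, also added later, these ratios were 6.25 and 6.87. With a limit of 1.5-fold between libraries in place of 1.2-fold, 0 members and 19 of all genes passed it. Leaving out each library in turn gave 0 to 1 members and 258 to 327 of all genes over 1.2-fold, as a ratio over fewer libraries must be smaller; Psmg4 no longer passed without replicate 3. With each gene's own variance the calls of Psmc1 (adjusted p = 0.066) and Psma5 (0.055) against the 20S core and of Cct6b against 1 TPM (0.14) were lost. With 3 libraries, the spread rests on 2 degrees of freedom, and the thymus-type and testis-type genes on 1 to 25 counts.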
